A study of Mus musculus with 6 samples.

Results

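The 40 genes described here carry out or restrain cell division: D- and E-type cyclins with E2f1 (6 genes), cyclin-dependent kinase inhibitors of the Cdkn1 family (3), origin licensing (7), the replication fork and its nucleotide supply (4), mitotic cyclins, kinases and checkpoint (11), and chromosome and spindle proteins (9). They were chosen by name, with earlier results of these data known, and each is represented by the brightest, over all 6 arrays, of the probe sets that the platform annotation assigns to that symbol alone. All 40 were measured, of 18193 genes so named. Expression was measured on 6 Affymetrix arrays of total RNA from cerebellar endothelial cells, pulled out on beads coated with an antibody to PECAM, which sits on the endothelial surface. Of these, 3 preparations came from Fz4-/- mice, which lack Frizzled4, an endothelial receptor for Norrin and Wnt signals, and 3 from wild-type mice. Both groups were at postnatal day 16, of mixed gender and on a C57Bl6/129 mixed background. The labels give neither the deleted part of the gene nor whether a preparation pooled animals, so p-values speak only of how much these preparations varied.

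Cells enter division when D-type cyclins with Cdk4 and Cdk6 release E2F factors, which switch on E-type cyclins, the Mcm helicase loaded at replication origins by Cdc6, and the enzymes of DNA synthesis. Genes needed for mitosis are switched on later, many of them through a CHR element and CCAAT boxes near the start site, bound by the DREAM, B-Myb and FoxM1 complexes and by NF-Y. The Cdkn1 proteins hold cells out of the cycle. In the postnatal cerebellum, growing vessels divide, and so do granule cell precursors, glial precursors and microglia, and arrays of bulk RNA cannot tell fewer dividing cells from less RNA per cell.

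All values are log2 RMA expression, and differences are Fz4-/- minus wild type. Fzd4 itself averaged 3.69 ± 0.56 in Fz4-/- arrays and 10.63 ± 0.37 in wild-type arrays (SD, n = 3 each). The defining endothelial genes were bright on all 6 arrays, with Cdh5 between 10.73 and 11.94 and Cldn5 between 12.44 and 12.89. Before the results, 2 features of the arrays are needed. Fz4-/- replicate 1 held the lowest level of all 9 microglial and all 9 mural cell markers, and the arrays numbered 3 in both genotypes deviated together from their groups.

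No cell cycle gene differed between genotypes past the threshold, while many differed several-fold between preparations of the same genotype. With limma, 0 of 40 members had an adjusted p under 0.05, where 0.0220% of all genes (4 of 18193) and 0.0111% of all probe sets did. With the replicate number as a block it was 0 of 40 members and 0% of genes. At an unadjusted p under 0.05 there was 1 member, Cdkn1c, or 2.5% of the list against 4.60% of all genes. With the block there were 2, or 5.0%, against 8.89%. The same gene was the only member whose genotypes did not overlap, against 9.54% of all genes. Of the 40 differences 18 were positive and 22 negative, from -0.80 to 0.55, with a median of -0.03 beside 0.01 over all genes. The arrays nevertheless left room for change: the 95% interval of the difference lay within a 2-fold change in either direction for 17 members (42.5%), compared with 67.4% of all genes. The median depended on which preparations were counted, being 0.26 without Fz4-/- replicate 2, 0.23 without wild-type replicate 3, and between -0.14 and -0.10 without any other array.

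**Figure D1:**
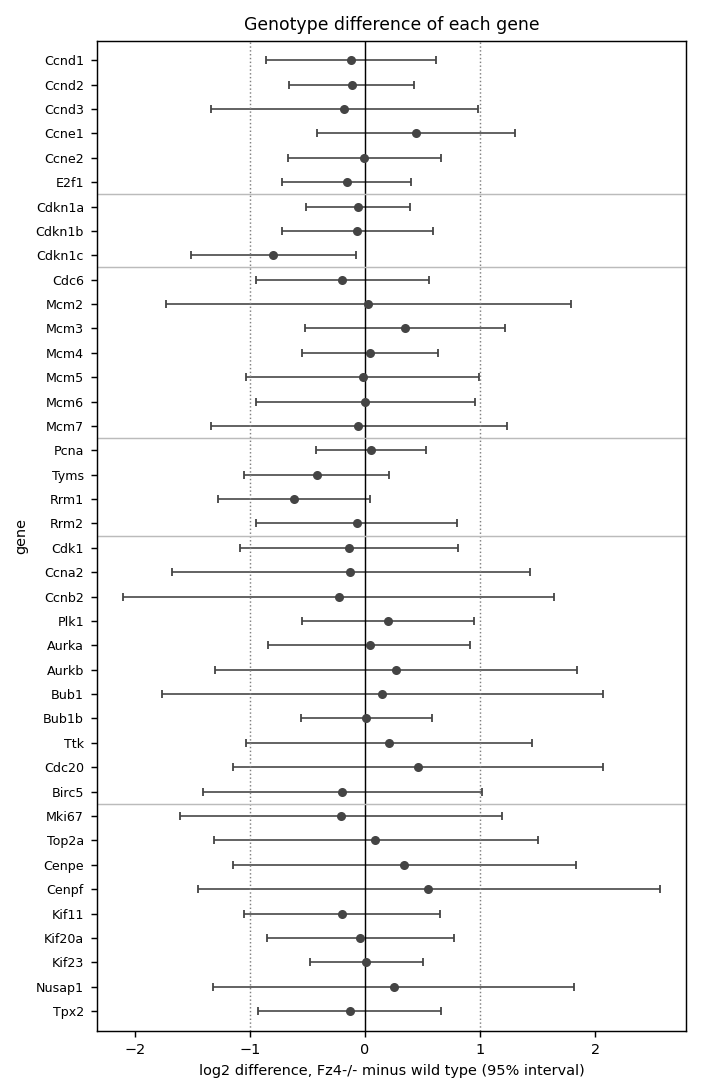
Log2 difference, Fz4-/- minus wild type, of each of the 40 genes (points) with its 95% interval (bars, limma, n = 3 arrays per genotype), with dotted lines at a 2-fold change and grey lines between role groups. Only the interval of Cdkn1c lies wholly on one side of 0, and it was not past the threshold after adjustment.

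Spread between preparations was wide for these genes. The lowest and highest arrays were over 2-fold apart for 31 of 40 members (77.5%), against 38.4% of all genes, and the median range was 1.37 (2.59-fold) beside 0.83 (1.78-fold). Mitosis genes had the widest, with a median range of 2.03 (4.08-fold), ahead of replication genes at 1.30 (2.45-fold), G1 genes at 0.96 and inhibitors at 0.77. Wild-type replicate 3 was the highest array for 23 members (57.5%, against 22.0% of all genes), and Fz4-/- replicate 2 was the lowest for 19 (47.5%, against 15.2%).

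**Figure D2:**
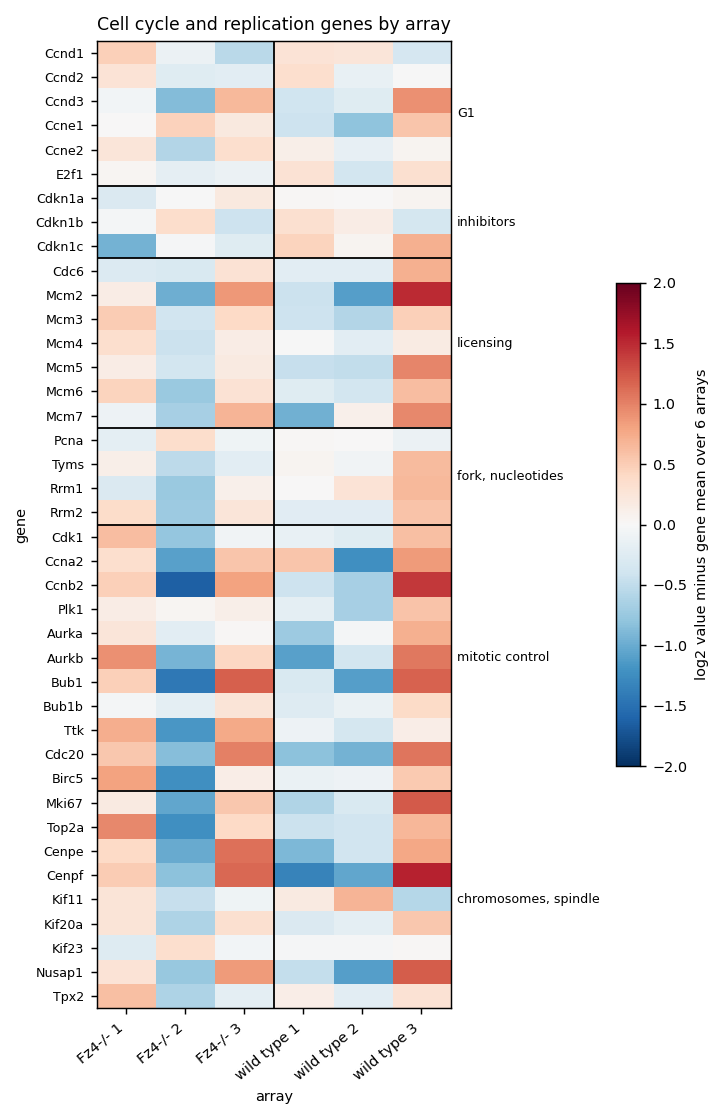
Log2 value of each gene minus its mean over the 6 arrays, with Fz4-/- replicates 1 to 3 left of wild-type replicates 1 to 3 and genes grouped by role. Red runs down the columns of Fz4-/- replicates 1 and 3 and wild-type replicate 3 in the licensing and mitosis blocks, and blue down that of Fz4-/- replicate 2.

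Mitotic cyclins, kinases and checkpoint genes had a median range of 2.03, and chromosome and spindle genes one of 2.11. The promoters of 3 of them are printed here because each holds the same short words near its start site, at differing positions. Capitals mark the CHR word TTTGAA, the word CCAAT (each on either strand) and, in Cdk1, an E2F word, TTTCGCGC. Each runs from 250 bases before to 50 bases after the start, from RefSeq on GRCm38.p6.
Ccnb2, chr9:70421505-70421804, minus strand: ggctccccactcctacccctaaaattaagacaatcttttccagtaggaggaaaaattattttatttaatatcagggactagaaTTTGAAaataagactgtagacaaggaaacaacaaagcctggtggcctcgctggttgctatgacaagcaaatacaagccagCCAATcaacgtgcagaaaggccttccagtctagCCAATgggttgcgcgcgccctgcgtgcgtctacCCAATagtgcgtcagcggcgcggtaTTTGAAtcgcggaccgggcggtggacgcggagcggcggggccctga
Cdc20, chr4:118437294-118437593, minus strand: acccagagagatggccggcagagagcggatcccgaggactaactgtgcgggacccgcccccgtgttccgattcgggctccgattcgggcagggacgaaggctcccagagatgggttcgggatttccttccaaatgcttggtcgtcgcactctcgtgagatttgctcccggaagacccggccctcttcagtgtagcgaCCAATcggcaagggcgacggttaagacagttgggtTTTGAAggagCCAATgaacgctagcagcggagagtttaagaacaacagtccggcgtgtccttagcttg
Cdk1, chr10:69352863-69353162, minus strand: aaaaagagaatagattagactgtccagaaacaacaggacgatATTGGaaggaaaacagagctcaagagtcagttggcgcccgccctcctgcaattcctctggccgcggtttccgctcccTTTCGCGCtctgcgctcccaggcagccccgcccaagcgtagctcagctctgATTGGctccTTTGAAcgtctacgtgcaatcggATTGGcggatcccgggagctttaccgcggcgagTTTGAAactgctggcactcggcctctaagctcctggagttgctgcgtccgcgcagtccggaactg
In Ccnb2, 3 CCAAT words began at -87, -54 and -21, counted from the start site, and the nearer CHR word began at 5. In Cdc20 the CHR word began at -18, between CCAAT words at -53 and -8. Cdk1 held CHR words at -71 and -15 and 3 CCAAT words on the opposite strand.

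Ccnb2, a mitotic partner of Cdk1, read 7.10, 4.99 and 7.42 in Fz4-/- replicates 1 to 3, against 6.21, 5.95 and 8.04 in wild-type replicates 1 to 3. Both the lowest and the second highest array were Fz4-/-, the genotypes overlapped, and the range of 3.05 was 8.29-fold. The difference was -0.23 (SE 0.79, 95% interval -2.10 to 1.64). Bub1, a spindle checkpoint kinase, read 6.72, 4.82 and 7.44 in Fz4-/- replicates, against 5.94, 5.14 and 7.43 in wild-type replicates. The arrays numbered 3 were level with each other, and Fz4-/- replicate 2 was again lowest (difference 0.15, SE 0.80).

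Cdc20, the activator of the anaphase-promoting complex, read 8.04, 6.66 and 8.51 in Fz4-/- replicates and 6.69, 6.56 and 8.58 in wild-type replicates. Its difference of 0.46 (SE 0.68) had the lowest p of the group, with limma adjusted p = 1.00. Fz4-/- replicate 1 stood with the arrays numbered 3, well above the remaining wild-type arrays. Dimmer Cdc20 probe sets differed by only -0.08 and 0.05. Plk1, a kinase of mitotic entry, read 6.29, 6.18 and 6.27 in Fz4-/- replicates and 5.95, 5.48 and 6.71 in wild-type replicates, so its spread lay in wild type (SD 0.06 in Fz4-/- and 0.62 in wild type). Cdk1, the kinase that drives mitosis, read 9.44, 8.05 and 8.75 in Fz4-/- replicates and 8.67, 8.58 and 9.42 in wild-type replicates. Its highest arrays, one of each genotype, were nearly equal.

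The other members of the group differed by -0.20 to 0.27. Ccna2, the S-phase and G2 cyclin, differed by -0.13, and Birc5, a subunit of the chromosomal passenger complex, by -0.20. Aurkb, the kinase of that complex, differed by 0.27 and Aurka, the centrosomal kinase, by 0.04. The checkpoint genes Ttk and Bub1b differed by 0.21 and 0.01. Their ranges ran from 0.65 for Bub1b to 2.14 for Aurkb, which read 6.51, 4.67 and 6.02 in Fz4-/- replicates and 4.51, 5.24 and 6.65 in wild-type replicates. Genotypes overlapped for each of these 6 genes.

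**Figure D3:**
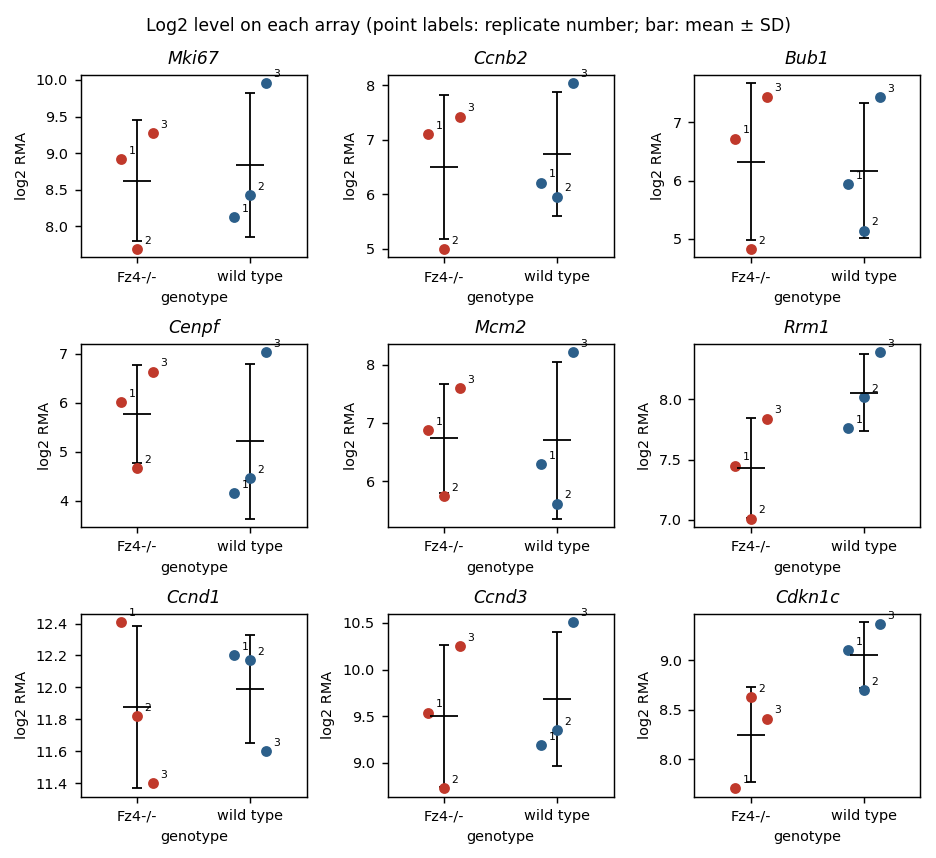
Log2 level of 9 genes on each array (points numbered by replicate), Fz4-/- left of wild type, with the mean and SD of 3 arrays. Ccnb2, Bub1, Cenpf, Mcm2 and Mki67 run from Fz4-/- replicate 2 or a wild-type array at the bottom to an array numbered 3 at the top, Ccnd1 has both arrays numbered 3 at the bottom, and Cdkn1c is the panel with no overlap.

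Chromosome and spindle genes repeated the order of the arrays. Cenpf, a kinetochore protein that accumulates in G2, had the second widest range of all members.
Cenpf, chr1:189688037-189688336, minus strand, is shown with the same marking because its CHR word, which begins at 3, sits almost where that of Ccnb2 does: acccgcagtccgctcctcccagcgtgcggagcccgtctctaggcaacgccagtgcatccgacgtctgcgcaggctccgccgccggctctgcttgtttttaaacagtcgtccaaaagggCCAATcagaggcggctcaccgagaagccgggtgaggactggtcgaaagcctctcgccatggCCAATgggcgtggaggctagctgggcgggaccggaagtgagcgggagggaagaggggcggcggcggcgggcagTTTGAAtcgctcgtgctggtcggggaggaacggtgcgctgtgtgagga
Cenpf read 6.01, 4.67 and 6.64 in Fz4-/- replicates and 4.16, 4.46 and 7.03 in wild-type replicates. The wild-type arrays alone spanned 2.87, or 7.29-fold, and the difference was 0.55 (SE 0.84, 95% interval -1.45 to 2.56). Its mean of 5.49 lay just under the median probe set (5.54), so part of its spread is at a low level. Nusap1, a spindle microtubule protein, read 7.78, 6.75 and 8.36 in Fz4-/- replicates and 7.03, 6.40 and 8.71 in wild-type replicates (difference 0.25, SE 0.66). The 3 highest arrays were those of Cenpf.

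Mki67, the Ki-67 antigen used to mark cycling cells, read 8.92, 7.69 and 9.27 in Fz4-/- replicates and 8.13, 8.43 and 9.96 in wild-type replicates. It averaged 8.63 ± 0.83 in Fz4-/- arrays and 8.84 ± 0.98 in wild-type arrays (SD, n = 3 each), a difference of -0.21 with a 95% interval from -1.61 to 1.19. A gain and a loss of 2-fold in Mki67 both lay inside that interval. Top2a, the topoisomerase that untangles sister chromatids, read 8.93, 6.74 and 8.36 in Fz4-/- replicates and 7.54, 7.58 and 8.63 in wild-type replicates. Its highest and lowest arrays were both Fz4-/-.

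Cenpe, a kinetochore motor (0.34), and the spindle genes Kif20a (-0.04) and Tpx2 (-0.13) also overlapped between genotypes, with ranges from 1.15 to 2.11. Kif11 and Kif23, motors of the bipolar spindle and of the midzone, went against the rest. Kif11 read 5.89, 5.17 and 5.54 in Fz4-/- replicates and 5.81, 6.32 and 5.07 in wild-type replicates, with wild-type replicate 3 lowest. Kif23 spanned only 0.61, from 9.08 to 9.68, with Fz4-/- replicate 2 highest. These 2 genes also have probe sets that disagree, as described with the other probe sets.

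Replication genes moved with the mitosis genes from array to array but over a narrower span. Of 11 genes, 5 differences were positive and 6 negative, with a median of -0.02. The promoters of 2 subunits of the Mcm helicase are printed because both hold E2F words, TTTGGCGC or TTTCGCGC on either strand, which overlap one another in part, along with CCAAT but no CHR word.
Mcm6, chr1:128359656-128359955, minus strand: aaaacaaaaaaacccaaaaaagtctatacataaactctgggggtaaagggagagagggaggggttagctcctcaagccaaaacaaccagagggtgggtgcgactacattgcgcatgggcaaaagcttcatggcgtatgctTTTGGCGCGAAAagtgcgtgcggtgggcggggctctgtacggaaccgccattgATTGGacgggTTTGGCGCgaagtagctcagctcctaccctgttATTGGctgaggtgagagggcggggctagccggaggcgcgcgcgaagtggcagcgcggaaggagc
Mcm5, chr8:75109259-75109558, plus strand: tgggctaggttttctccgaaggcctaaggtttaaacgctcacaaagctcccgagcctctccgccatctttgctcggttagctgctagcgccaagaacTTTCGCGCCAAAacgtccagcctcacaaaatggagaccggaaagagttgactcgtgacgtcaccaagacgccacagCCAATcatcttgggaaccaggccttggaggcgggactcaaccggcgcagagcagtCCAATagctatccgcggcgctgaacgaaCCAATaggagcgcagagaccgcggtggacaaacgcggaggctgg
In Mcm6 the E2F words began at -110, -106 and -47, and in Mcm5 at -153 and -149.

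Mcm2, another subunit of that helicase, had the widest range of the licensing genes, at 6.08-fold. It read 6.87, 5.74 and 7.59 in Fz4-/- replicates and 6.29, 5.61 and 8.21 in wild-type replicates. The means were nearly equal, 6.73 ± 0.93 in Fz4-/- and 6.70 ± 1.35 in wild-type arrays (SD, n = 3 each), and the 95% interval of the difference ran from -1.73 to 1.79. Mcm7 read 8.41, 7.84 and 9.18 in Fz4-/- replicates and 7.54, 8.61 and 9.46 in wild-type replicates. In both genes the arrays numbered 3 were the highest of their genotype.

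Mcm3 read 8.67, 7.79 and 8.57 in Fz4-/- replicates and 7.75, 7.59 and 8.65 in wild-type replicates, a difference of 0.35 (SE 0.37). It had the lowest p among licensing genes (limma adjusted p = 1.00). Cdc6, which loads the helicase, read 4.03, 4.0 and 4.60 in Fz4-/- replicates and 4.09, 4.10 and 5.02 in wild-type replicates. Cdc6 lay below the median probe set on all 6 arrays, and only the arrays numbered 3 stood above a near-flat low level. Mcm4, Mcm5 and Mcm6 differed by 0.04, -0.02 and 0.00, with genotypes overlapping.

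Rrm1, the large subunit of ribonucleotide reductase, which makes deoxynucleotides, read 7.45, 7.01 and 7.84 in Fz4-/- replicates, against 7.76, 8.02 and 8.39 in wild-type replicates. Only Fz4-/- replicate 3 exceeded the lowest wild-type array. Its difference was -0.62 (SE 0.28, 95% interval -1.28 to 0.04, limma adjusted p = 1.00), while dimmer Rrm1 probe sets differed by -0.82 and, at a mean level of 3.73, by -0.07. At each replicate number Rrm1 was lower in Fz4-/-, but the labels do not say that equal numbers are paired. The share of all genes with this pattern was not counted. Rrm2, the small subunit, which is made in S phase, read 10.41, 9.31 and 10.29 in Fz4-/- replicates and 9.81, 9.82 and 10.61 in wild-type replicates, with a difference of -0.07. The 2 subunits thus ordered the arrays differently.

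Tyms, thymidylate synthase, read 4.88, 4.24 and 4.55 in Fz4-/- replicates and 4.82, 4.70 and 5.39 in wild-type replicates (difference -0.42, SE 0.26), below the median probe set. Pcna, the sliding clamp of the replication fork, was bright and steady, between 11.81 and 12.35, and its highest array was Fz4-/- replicate 2, the lowest array for most other replication genes. Its 95% interval, from -0.43 to 0.53, was among the narrowest of the members.

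On their brightest probe sets the D-type cyclins did not share an order of arrays. Ccnd1 read 12.41, 11.82 and 11.40 in Fz4-/- replicates and 12.20, 12.17 and 11.60 in wild-type replicates, so both arrays numbered 3 were lowest. Ccnd3 read 9.54, 8.73 and 10.25 in Fz4-/- replicates and 9.19, 9.35 and 10.51 in wild-type replicates, so both were highest. Ccnd2 read 11.26, 10.75 and 10.78 in Fz4-/- replicates and 11.32, 10.83 and 10.97 in wild-type replicates, within a range of 0.57. Their differences were -0.12 (SE 0.31), -0.18 (SE 0.49) and -0.11 (SE 0.23), none past the threshold. Ccnd1, a Wnt target in many tissues, had a 95% interval from -0.86 to 0.62, inside a 2-fold change. On the dimmer Ccnd1 probe sets Fz4-/- replicate 2 was lowest, at 9.50 and 7.33. The arrays numbered 3 read 9.90 in Fz4-/- and 10.00 in wild type on the first, and 7.47 and 7.42 on the second.

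Ccne1, which with Cdk2 starts S phase, read 6.21, 6.66 and 6.39 in Fz4-/- replicates and 5.79, 5.39 and 6.76 in wild-type replicates. All 3 Fz4-/- arrays lay above wild-type replicates 1 and 2 and below replicate 3, and the difference was 0.44 (SE 0.36, limma adjusted p = 1.00). Without wild-type replicate 3 the limma adjusted p was 0.589, the lowest of any member there. E2f1, the transcription factor of S-phase entry, read 6.03, 5.82 and 5.88 in Fz4-/- replicates and 6.29, 5.63 and 6.31 in wild-type replicates. Ccne2 differed by -0.01.

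Cdkn1c, which encodes p57, was the member with the lowest p. It read 7.71, 8.63 and 8.41 in Fz4-/- replicates, against 9.10, 8.70 and 9.36 in wild-type replicates. Every Fz4-/- array lay below every wild-type array, and the replicates numbered 2 were nearest to each other. The means were 8.25 ± 0.48 in Fz4-/- and 9.05 ± 0.33 in wild-type arrays (SD, n = 3 each), a difference of -0.80 (SE 0.30, 95% interval -1.51 to -0.08, limma adjusted p = 1.00). Non-overlap with Fz4-/- lower was found in 4.95% of all genes. Without Fz4-/- replicate 1, the array low in non-endothelial markers, the difference was -0.53, and without both arrays numbered 3 it was -0.73, neither below an unadjusted p of 0.05. That level was also missed without wild-type replicate 1 (-0.78) or replicate 3 (-0.65). Mural cell and fibroblast markers were lowest on the array where Cdkn1c was lowest. Their summed linear levels ran from 12175 to 29793 in Fz4-/- and 24060 to 29230 in wild-type arrays for 9 mural markers, and from 1552 to 10871 in Fz4-/- and 7881 to 9531 in wild-type arrays for 8 fibroblast markers. Those sums overlapped between genotypes. The summed level of 8 choroid plexus markers did not overlap, at 800, 1647 and 1556 in Fz4-/- replicates and 6216, 3718 and 12866 in wild-type replicates. It ordered the 6 arrays as Cdkn1c did, a match seen after the fact. The median deviation of the 8 markers did not, at -0.25 on wild-type replicate 1 and 0.14 on replicate 2. That sum was mostly Ttr, the transthyretin gene, at 9.40, 10.52 and 10.45 on the log2 scale in Fz4-/- replicates and 12.54, 11.76 and 13.50 in wild-type replicates, while Kcne2 was at most 2.45 in Fz4-/- arrays and from 3.22 to 6.76 in wild-type arrays. The part of these cell types in the Cdkn1c difference was not tested.

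The other inhibitors were bright on all arrays. Cdkn1a, or p21, read 11.75, 12.04 and 12.24 in Fz4-/- replicates and 12.07, 12.05 and 12.10 in wild-type replicates. Cdkn1b, or p27, read 10.92, 11.31 and 10.54 in Fz4-/- replicates and 11.27, 11.10 and 10.60 in wild-type replicates, with both arrays numbered 3 lowest. Their differences were -0.06 and -0.07, with intervals inside a 2-fold change. A second Cdkn1a probe set read 10.87, 11.40 and 10.45 in Fz4-/- replicates and 11.39, 11.49 and 10.40 in wild-type replicates, lowest on the arrays numbered 3, whereas the first was highest there. The dimmer Cdkn1b probe set read 11.12, 10.88 and 10.93 in Fz4-/- replicates and 11.25, 10.96 and 10.39 in wild-type replicates. There Fz4-/- replicate 3 lay above Fz4-/- replicate 2.

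Averaged over the 20 mitosis genes, the arrays lay 0.42, -0.78 and 0.46 from the gene means in Fz4-/- replicates 1 to 3 and -0.37, -0.44 and 0.71 in wild-type replicates 1 to 3. Each genotype therefore held preparations high and low in mitosis genes, 2 high in Fz4-/- and 1 in wild type. By replicate number the mean difference was 0.79, -0.34 and -0.25, so the direction was not shared across the numbers. Replication genes lay at 0.11, -0.50 and 0.26 in Fz4-/- replicates and -0.26, -0.26 and 0.65 in wild-type replicates, in nearly the same order. For mitosis genes the median difference was 0.02 with all arrays, 0.38 without Fz4-/- replicate 2 and 0.37 without wild-type replicate 3, and lay from -0.11 to -0.08 without any other. For replication genes it was 0.26 without Fz4-/- replicate 2 and 0.19 without wild-type replicate 3, and between -0.22 and -0.11 otherwise.

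**Figure D4:**
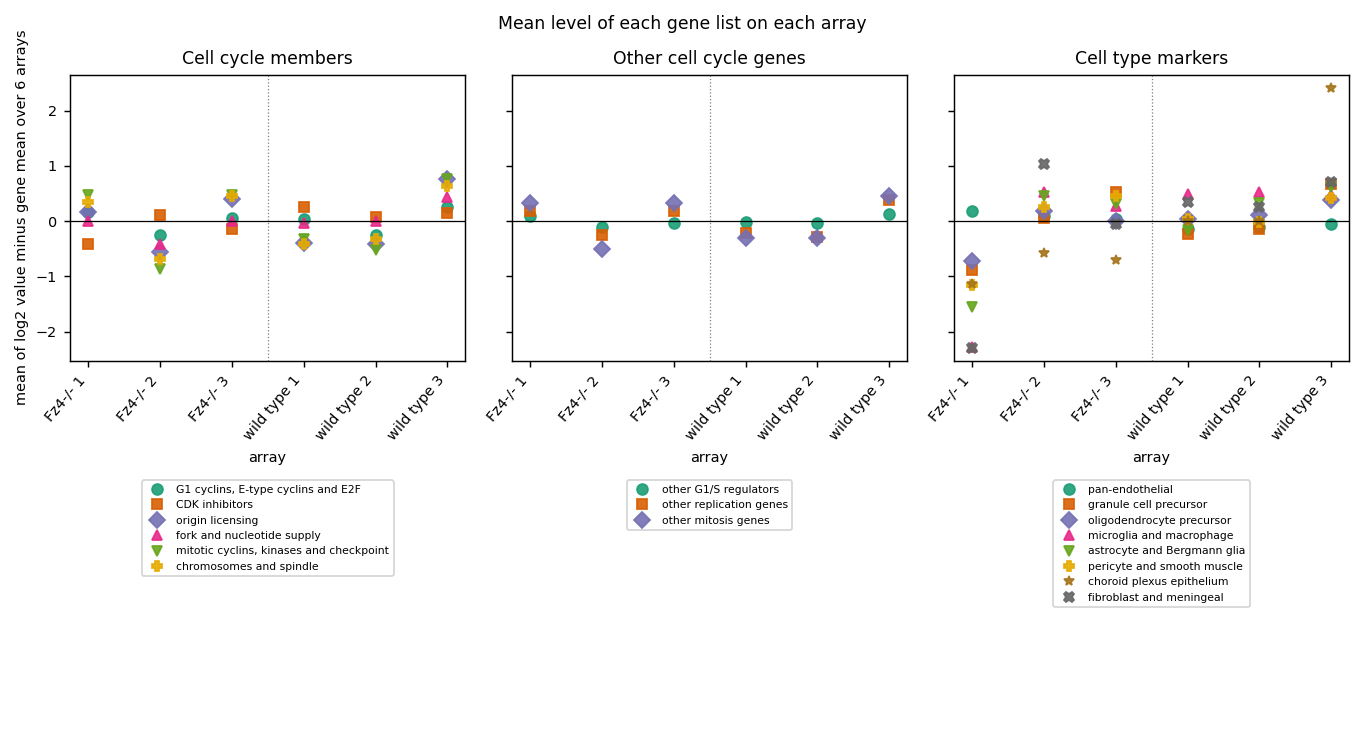
Mean over each gene list of the log2 value minus the gene's mean over 6 arrays, with Fz4-/- replicates 1 to 3 left of wild-type replicates 1 to 3. Mitosis lists are high on Fz4-/- replicates 1 and 3 and wild-type replicate 3, whereas most non-endothelial marker lists are lowest on Fz4-/- replicate 1.

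Other cell types that divide, or that were carried along, were read from their markers on the same arrays. Granule cell precursor genes lay at -0.89, 0.06 and 0.52 in Fz4-/- replicates and -0.23, -0.14 and 0.68 in wild-type replicates. They shared the high position of the arrays numbered 3 and were lowest on Fz4-/- replicate 1, where mitosis genes were 0.42 above their mean. The part of these precursors in the level of mitosis genes was not tested. Their summed linear level over 11 markers ran from 2159 to 3363 in Fz4-/- and 3149 to 3445 in wild-type arrays. It was mostly Zic1 and Mycn, of which Mycn is also counted here among the other G1/S regulators. On Fz4-/- replicate 1 Mycn was highest (10.57) and Zic1 lowest (9.03). The defining precursor genes were dim, Atoh1 between 3.49 and 4.46 and Barhl1 between 3.18 and 4.30, where the arrays' lower quartiles were 3.46 to 3.64, and 4 of the 11 markers had means above the median probe set.

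Microglia and macrophage genes lay at -2.28, 0.53 and 0.27 in Fz4-/- replicates and 0.49, 0.52 and 0.47 in wild-type replicates. Their summed level over 9 markers ran from 604 to 5248 in Fz4-/- and 4661 to 5140 in wild-type arrays. Microglial genes were lowest on Fz4-/- replicate 1, where mitosis genes were 0.42 above their mean, and nearly level on the other arrays. Their part in the level of mitosis genes was not tested. Oligodendrocyte precursor genes lay at -0.72 on Fz4-/- replicate 1 and between 0.01 and 0.39 elsewhere. Olig2 was at most 2.34 on any array, while 3 of the 7 markers averaged above the median probe set. These were Cspg4 (9.08), Pdgfra (7.68) and Ptprz1 (6.79), of which Cspg4 is also a mural marker here and Pdgfra a fibroblast marker. The part of these precursors in the level of mitosis genes was not tested. Pan-endothelial genes varied least of the marker lists, at 0.18, 0.09 and 0.03 in Fz4-/- replicates and -0.14, -0.10 and -0.06 in wild-type replicates. The summed level of their 12 markers was 44217 to 47627 in Fz4-/- and 40390 to 42752 in wild-type arrays, higher in Fz4-/- without overlap. Singly, 2 of the 12 markers did not overlap (16.7%, against 9.54% of all genes). Choroid plexus genes were highest on wild-type replicate 3, at 2.42, which was also the highest array for mitosis genes. Their summed level over 8 markers ran from 800 to 1647 in Fz4-/- and 3718 to 12866 in wild-type arrays, and their part in the level of mitosis genes was not tested.

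Mitosis genes outside the 40 ordered the arrays much as the members did. The 53 measured of 56 other mitosis genes lay at 0.33, -0.51 and 0.33 in Fz4-/- replicates and -0.30, -0.31 and 0.46 in wild-type replicates. Among them 0 passed an adjusted p of 0.05 in limma and 0 an unadjusted one, 35 differences were positive and 18 negative, and the median was 0.16. Cenpk, a centromere protein, had the lowest p of that list (difference 0.39, SE 0.20, limma adjusted p = 1.00). Of the 42 measured of 44 other replication genes, 0 passed either level, with a median of 0.06, and wild-type replicate 2 was lowest on average (-0.28, with -0.26 on Fz4-/- replicate 2), while the lowest p was that of Tipin, a fork-protection protein (0.53, SE 0.23).

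Among 21 other G1/S regulators 0 passed after adjustment. Against 4.60% of all genes, 1 of them (4.76%) had an unadjusted limma p under 0.05. This was Cdk6, the kinase partner of D-type cyclins, which read 6.83, 7.66 and 7.63 in Fz4-/- replicates, against 8.48, 8.16 and 8.25 in wild-type replicates. Every Fz4-/- array was below every wild-type array, as in 4.95% of all genes, with a difference of -0.92 (SE 0.27, limma adjusted p = 0.956). Its close relative Cdk4 differed by 0.01.

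Probe sets of the same gene did not always order the arrays alike. Of the 40 genes, 30 have more than 1 probe set, 97 in all. A second Kif11 probe set read 6.30, 4.35 and 6.23 in Fz4-/- replicates and 5.64, 4.01 and 6.29 in wild-type replicates, in the order typical of mitosis genes. A dimmer Kif23 probe set read 6.85, 6.93 and 5.42 in Fz4-/- replicates and 7.09, 7.02 and 5.75 in wild-type replicates, low on both arrays numbered 3. A second Tpx2 probe set read 6.97, 4.86 and 7.15 in Fz4-/- replicates and 5.31, 5.70 and 7.65 in wild-type replicates, so Tpx2 joins the wide-ranging genes when read there. Of the 7 Ccnd2 probe sets, most were highest on the arrays numbered 3, such as that at 10.32 in Fz4-/- and 10.63 in wild type. A single probe set was lowest there (8.57 in Fz4-/- and 7.97 in wild type), and the brightest was neither. Whichever probe set was read, no difference of a member passed the threshold.

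Promoter sequences were found for 31 of the 40 genes. The CHR word TTTGAA occurred on either strand in 12 of 16 mitosis genes (75.0%), in 1 of 10 replication genes (Mcm2) and in 15.7% of 14452 genes on the array, or 17.9% of all 32851 promoters of the same length. CCAAT occurred in 14 of the 16 mitosis genes and 8 of the 10 replication genes (87.5% and 80%), against 42.0% of genes on the array and 37.4% of all promoters. For E2F, the words TTTCCCGC, TTTGGCGC, TTTCGCGC and TTCCCGCC were searched, of which the first and last overlap. They occurred in 6 of 10 replication genes (60%) and 1 of 16 mitosis genes (Cdk1), against 6.03% of genes on the array and 3.49% of all promoters. The 5 G1 and inhibitor genes with a promoter held neither a CHR nor an E2F word in this window. Kif23, which varied little between arrays on its brightest probe set, holds both CHR and CCAAT, as Ccnb2 does, and whether range goes with these words was not tested. These matches describe letters near the start site and show no binding.

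**Figure D5:**
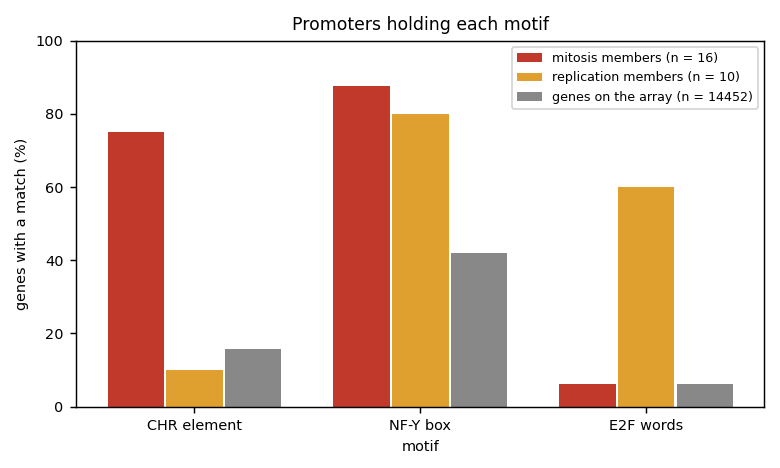
Share of genes, in percent, whose promoter of 300 bases holds a CHR element, an NF-Y box or any of 4 E2F words, for 16 mitosis genes, 10 replication genes and 14452 genes on the array. The CHR bar is tallest for mitosis genes and the E2F bar for replication genes.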

How the data were processed

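Total RNA of 6 preparations was extracted with Trizol and RNeasy and biotin-labelled, per the labels' protocols. The authors deposited log2 values from RMA, a method of background correction, joint normalization and summary per probe set, as the submitters' processing notes name it without a version. Differences between dim genes can be understated by it. Arrays have no read depth, so precision rests on their number.

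Of 45101 probe sets, 64 controls were left out. Among the other 45037, the platform annotation gives 1 symbol for 34945, several for 932 and none for 9160. The genotype term was fitted in R 4.3.3 by limma 3.58.1 (lmFit, then eBayes) over all 6 arrays with no covariate. Its two-sided p-values were adjusted by Benjamini-Hochberg across all 45037 probe sets, with 0.05 as the threshold, and the fit was tested on simulated data. Permutation of 3 against 3 arrays cannot give p below 0.1. Arrays shared at most 0.351% identical values.

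Deviations from group means correlated at 0.244, 0.303 and 0.574 for equal replicate numbers, above the minimum of 0.1 for pairing. Unlike numbers reached 0.262, so the block was an alternative.

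Members and gene lists were chosen with earlier results of these data known. Values on every array are given for D-type cyclins, Cdkn1 genes and, in each other role, the members with the widest range and the lowest p (2 each). Mki67, Top2a, Cdk1 and Aurkb, the promoters shown and the second probe sets were chosen after their values were seen. In other cell cycle lists the gene with the lowest p is named. Alternatives covered normalization, dim probe sets, variance, probe set choice, the block and each array left out. Figures were drawn with matplotlib.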

Additional observations from a re-analysis of the deposited data

How the results depend on the processing

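Under each of the 13 settings tried 0 members passed an adjusted p of 0.05 in limma, and so too with both arrays numbered 3 left out, which was added after seeing the data. Between 0 and 2 members had an unadjusted p under 0.05. With the replicate number as a block the count was 0, 2 members had an unadjusted p under 0.05 (Rrm1 the lowest). With 1 array of each genotype per number, the block leaves every difference as it was by construction, so the medians of -0.03 for members, 0.02 for mitosis and -0.02 for replication genes are no check. Over all genes the block called 0 against 4 without it, although 1617 against 837 had an unadjusted p under 0.05. Leaving out 1 array gave 0 to 2 calls over all genes, member medians from -0.14 to 0.26, mitosis medians from -0.11 to 0.38 and replication medians from -0.22 to 0.26. Without both arrays numbered 3 these medians were 0.05, 0.10 and 0.06. Cdkn1c kept a lower level in Fz4-/- under every alternative run, with a limma adjusted p from 0.564 to 1.00. A filter at the median level of all probe sets left 37 members, without Cdc6, Tyms and Cenpf, and 39 were left when probe sets whose suffix marks possible matches to more than one transcript were dropped.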

Other observations

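The arrays numbered 3, one of each genotype, lay together above the other 4 arrays for 15 of the 40 members (37.5%) and together below them for 2 (5.0%), Ccnd1 and Cdkn1b. Over all genes these shares were 21.6% and 18.1%. Neither Ccnd1 nor Cdkn1b had both arrays numbered 3 below the rest on its dimmer probe sets. The members above include Mki67, Ccnb2, Bub1, Cenpf, Nusap1, Mcm2, Mcm5, Mcm7 and Ccnd3, and also Cdkn1a, though only just (12.10 on wild-type replicate 3, against 12.07 on the next array) and with a second probe set that lay below on both. Of the 15, 9 are mitosis genes. Of the other replication genes outside the 40, 21 of 42 lay above on both arrays. Fz4-/- replicate 1 did not share the number. It was the highest array for 16 of the 53 other mitosis genes (30.2%) and 14 of the 42 other replication genes (33.3%), against 18.6% of all genes. Wild-type replicate 1 was the highest for 0 of either, against 12.7% of all genes.

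Mitosis genes outside the 40 spread as widely in single cases as the members did. Hmmr, a spindle-associated hyaluronan receptor, read 6.53, 3.42 and 6.84 in Fz4-/- replicates and 5.18, 4.74 and 6.45 in wild-type replicates, a range of 3.42. Prc1, which bundles midzone microtubules, read 9.68, 7.41 and 8.92 in Fz4-/- replicates and 8.67, 8.49 and 9.28 in wild-type replicates. Both genes were picked for their values, and both have Fz4-/- replicate 2 lowest.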
